A study of Mus musculus with 8 samples.

Results

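The genes described here encode the collagens, the laminin chains and other proteins of the basement membrane in mouse embryonic stem cells. They were chosen by name: protein-coding genes whose symbol is Col followed by a digit or Lama, Lamb or Lamc followed by a digit, together with Nid1, Nid2, Hspg2, Sparc, Agrn, P4ha1, P4ha2, Plod1, Plod2, Lox and Loxl2. The rule took 66 of the 55421 genes in the count table. Of these 66 genes, 60 had at least 1 count, 37 passed the filter on low counts and were tested, and 29 were not tested. The rule uses names alone, but the set was proposed with results of these data already in view, so the shares of called genes do not come from a blind choice.

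The 8 libraries are QuantSeq 3′ mRNA libraries of E14 cells (129/Ola background), a line from the mouse blastocyst, grown with serum and LIF on gelatin and without a feeder layer named in the labels. They form 4 groups of 2 libraries that the labels call biological duplicates: untreated wild-type cells (WT), untreated cells with a knockout of the miR-290-295 cluster (KO), and KO cells transfected for 36 h with 5 nM of a siPOOL, a mixture of small interfering RNAs, either a negative control (siNeg) or one against the transcription factor gene Tfap4 (siTfap4). The siNeg and siTfap4 cells therefore all lack the microRNA cluster, and the labels do not say how many knockout clones were used. The titles of the untreated libraries carry suffixes that the labels do not explain: HWP8 for replicate 1 of KO, CC for replicate 2 of KO and replicate 1 of WT, and a string of digits for replicate 2 of WT. Whether duplicates of a group differ in line, clone or date is therefore not known here, and the spread between them may include such differences. WT and KO libraries were made and sequenced as one set and the siPOOL libraries as another, so the comparisons are KO against WT and siTfap4 against siNeg, which share no library.

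A basement membrane is a thin sheet of extracellular matrix on which epithelial cells rest. Laminins, each a trimer of an alpha, a beta and a gamma chain, polymerise at the cell surface, and a network of type IV collagen is joined to them by nidogens and by the heparan sulfate proteoglycans perlecan and agrin. In the early embryo laminin and type IV collagen are made in large amounts by the primitive endoderm and its derivatives, and collagen chains are hydroxylated in the endoplasmic reticulum before they are secreted.

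Total counts per library lay between 8326675 and 12726123. Libraries are named by group and replicate number, so that WT rep 1 is replicate 1 of WT, and values stand in that order. Levels are CPM (counts scaled to a common library size with TMM factors). They are read within a gene and not compared between genes. A gene is called higher or lower where the adjusted p from edgeR's quasi-likelihood test, with Benjamini-Hochberg adjustment over 15137 genes, is below 0.05. The Tfap4 level was 19.7 and 16.4 CPM in WT, 49.0 and 42.1 CPM in KO, 34.4 and 37.4 CPM in siNeg and 12.4 and 15.8 CPM in siTfap4. The annotated entries of the deleted cluster summed to 88 counts in WT rep 1 and 39 in WT rep 2, against 0 in the other 6 libraries. Duplicates differed by more than counting error in every group, with chi-square values per degree of freedom between 12.5 (KO) and 42.2 (siNeg).

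MicroRNAs missing from KO cells are shown because they define the comparison. Printed 5′ to 3′ are 5 mature 3p strands of the cluster whose seed begins with AAGUGC (RefSeq, GRCm38.p6, chromosome 7, plus strand). The seed, bases 2 to 8, is in capitals. miR-291a, miR-294 and miR-295 share the seed AAGUGCU, and miR-290a and miR-291b differ from it in the last seed base. The cluster's other mature strands, those of miR-292 and miR-293 included, are not shown, and some of them may begin their seed in the same way.
mmu-miR-290a-3p: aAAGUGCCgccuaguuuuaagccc
mmu-miR-291a-3p: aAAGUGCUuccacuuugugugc
mmu-miR-291b-3p: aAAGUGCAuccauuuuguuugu
mmu-miR-294-3p: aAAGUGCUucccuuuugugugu
mmu-miR-295-3p: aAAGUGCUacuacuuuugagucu

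Annotated 3′ UTRs were searched on the sense strand for AGCACTT, the match to the shared seed AAGUGCU, and for GCACTTA. The latter matches only AAGUGC, the start of all the printed seeds, and has an A after it. Both forms overlap where AGCACTTA holds them. Of the 37 tested genes of the set, 7 (18.9%) held a match, against 2649 of 12780 tested genes with an annotated 3′ UTR (20.7%). The 7 genes were Col17a1, Col18a1, Col4a2, Lama3, Loxl2, Nid1 and P4ha1. In KO against WT, Lama3 was called higher and Col4a2 was called lower, and the other 5 were not called. The Col4a2, Col18a1 and P4ha1 sites (GRCm38) are printed with the match in capitals, as a gene called lower and a pair not called. They lie at chr8:11448969-11448990 on the plus strand, chr10:77052353-77052374 on the minus strand and chr10:59372438-59372459 on the plus strand.
Col4a2: gaggaggagatgatAGCACTTt
Col18a1: cagcagccacatgaAGCACTTg
P4ha1: atatctttggtcctAGCACTTA

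In KO against WT cells, 4 of the 37 tested genes were called higher (10.8%) and 8 were called lower (21.6%), where 5.99% and 3.96% of all tested genes were. The median log2 fold change of the 37 genes was -0.58, against -0.01 over all tested genes. The genes called lower were both tested type IV collagen chains, the laminin chains Lama1 and Lamb1, the fibrillar collagens Col5a1 and Col1a1, and the collagen hydroxylases Plod2 and P4ha2. Of these, Col1a1 could be tested only through its WT counts. Among the genes called higher were the laminin chain Lama3 and the collagens Col26a1 and Col9a2. All 8 libraries entered the fit, so the spread of the siPOOL libraries also bears on these tests.

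**Figure D1:**
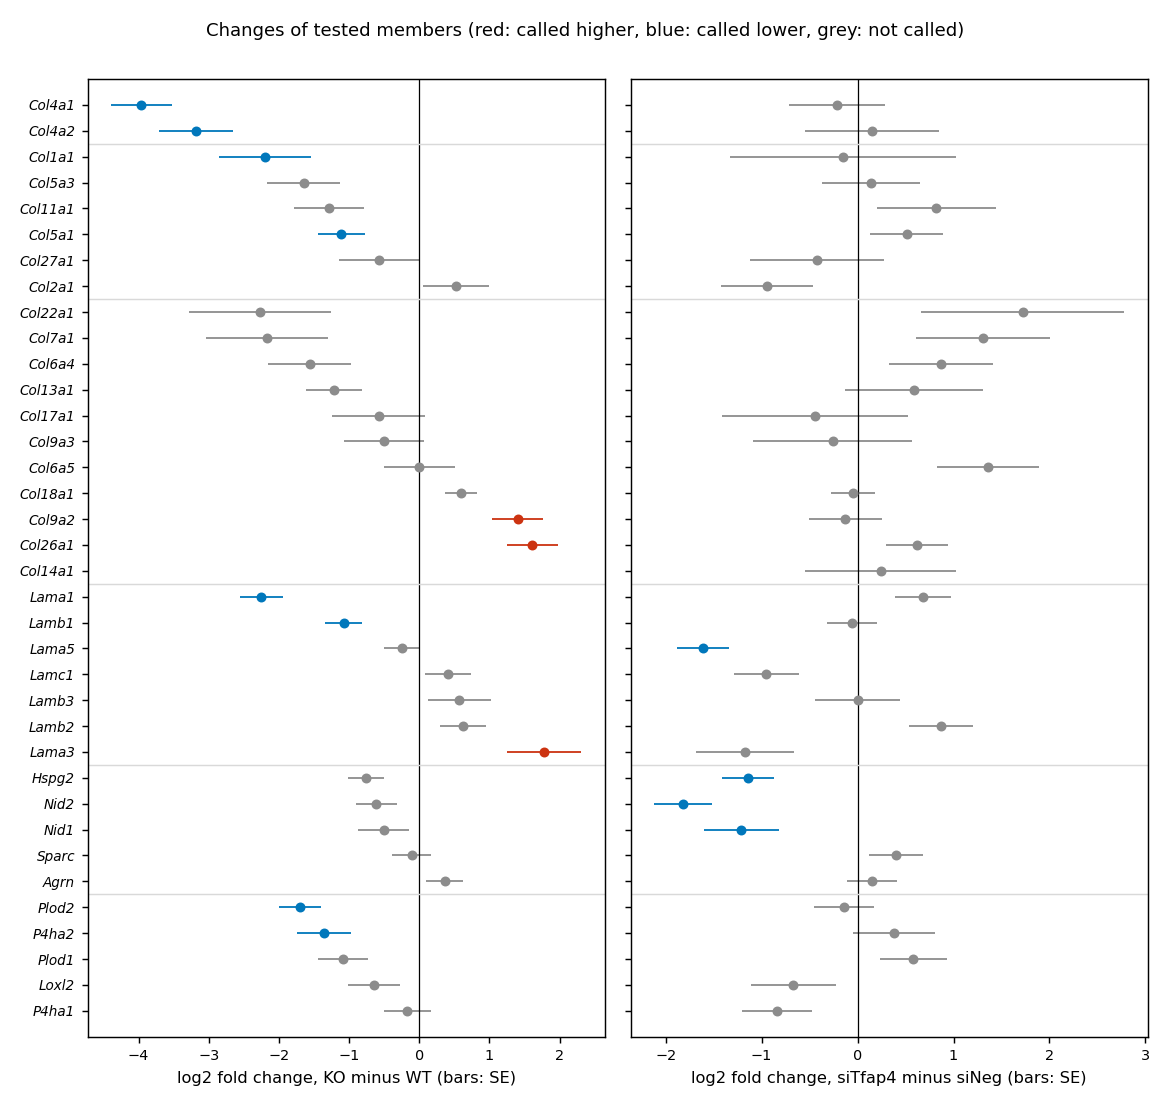
Log2 fold change with its standard error (bars) for tested genes of the set in KO minus WT (left) and siTfap4 minus siNeg (right), grouped from top to bottom as type IV collagens, fibrillar collagens, other collagens, laminins, other basement membrane genes and modifying enzymes. Col14a1 has no point on the left because it had 0 counts in WT. The largest falls on the left are Col4a1 at -3.96 and Col4a2 at -3.18, and on the right Nid2 at -1.82 and Lama5 at -1.61.

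Type IV collagen, the collagen of the basement membrane network, showed the largest falls in KO cells. Col4a1, its alpha 1 chain, stood at 59.5 and 60.9 CPM in WT and at 3.59 and 4.12 CPM in KO, and at 7.28 and 1.84 CPM in siNeg and 5.22 and 2.83 CPM in siTfap4. Every WT library lay far above all 6 libraries without the cluster. Col4a1 was 15.6-fold lower in KO than in WT (log2 fold change -3.96, SE 0.43, adjusted p = 3.80e-05, edgeR quasi-likelihood test).

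Col4a2, the alpha 2 chain that assembles with it, stood at 14.1 and 17.1 CPM in WT, 1.38 and 2.06 CPM in KO, 3.17 and 0.484 CPM in siNeg, and 3.31 and 0.944 CPM in siTfap4. It was 9.05-fold lower in KO (log2 fold change -3.18, SE 0.53, adjusted p = 0.00121, edgeR). The WT and KO values did not overlap for either chain. Between siTfap4 and siNeg neither chain was called (log2 fold change -0.21, SE 0.50, adjusted p = 0.810 for Col4a1 and 0.15, SE 0.70, adjusted p = 0.909 for Col4a2, edgeR), and the siNeg duplicates differed widely. The remaining type IV chains, Col4a3 to Col4a6, were not tested. Col4a3 had 0 counts in all 8 libraries, Col4a4 had 2 in total, and Col4a5 and Col4a6 had 6 each.

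Col4a1 (chr8:11198423-11312826, minus strand) and Col4a2 (chr8:11312805-11449287, plus strand; GRCm38) lie head to head, with start sites 21 bases apart. The promoter window of Col4a1 is printed because the pair fell together (RefSeq, GRCm38.p6, chr8:11312777-11313076, minus strand). Capitals mark the 78 bases that also lie in the 300-base window of Col4a2. The window holds no CANNTG and no CAGCTG, forms of the E-box, and its GC content is 74%.
Col4a1 promoter: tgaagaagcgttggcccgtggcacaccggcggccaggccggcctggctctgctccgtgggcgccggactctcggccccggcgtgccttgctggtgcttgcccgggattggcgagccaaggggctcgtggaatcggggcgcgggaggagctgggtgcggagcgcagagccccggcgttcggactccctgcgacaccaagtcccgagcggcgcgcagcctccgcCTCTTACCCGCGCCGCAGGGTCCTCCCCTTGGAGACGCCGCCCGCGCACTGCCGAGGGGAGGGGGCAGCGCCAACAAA

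**Figure D2:**
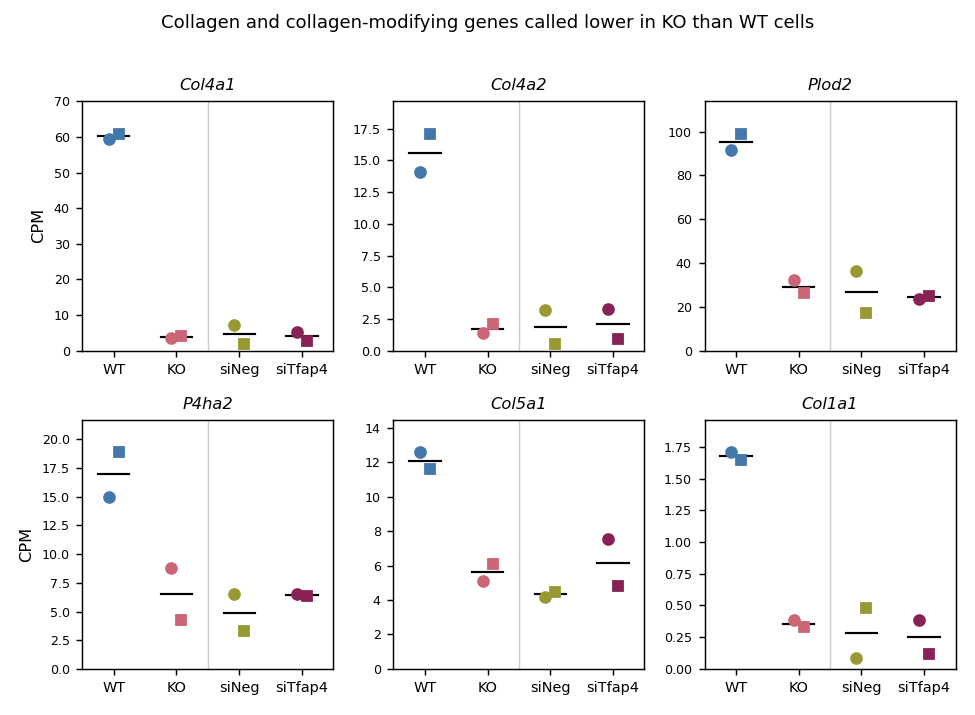
CPM (linear axes from 0) of the collagen and collagen-modifying genes called lower in KO than in WT, in every library. Circles are replicate 1, squares replicate 2 and lines the group means, and the grey line parts the separately prepared sets. In Col4a1 the WT libraries at 59.5 and 60.9 CPM stand above the other 6, of which the highest is 7.28 CPM.

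Of the 8 tested laminin chains, 2 were called lower and 2 higher in KO cells. Lama1, the alpha chain of laminin-111, stood at 40.2 and 60.7 CPM in WT and at 11.6 and 9.49 CPM in KO, with no overlap. It fell 4.76-fold (log2 fold change -2.25, SE 0.31, adjusted p = 0.000249, edgeR). Lamb1, the beta chain of the same trimer, stood at 138 and 106 CPM in WT and at 66.4 and 49.0 CPM in KO, again with no overlap, and fell 2.11-fold (log2 fold change -1.08, SE 0.26, adjusted p = 0.0133, edgeR). It was no longer called with WT rep 1 left out (adjusted p = 0.121) or with KO rep 2 left out (adjusted p = 0.208, edgeR). Lamc1, the gamma chain shared by most laminins, was not called (164 and 213 CPM in WT, 242 and 259 CPM in KO, log2 fold change 0.41, SE 0.33, adjusted p = 0.509, edgeR).

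Lama3, the alpha chain of a laminin of epithelial attachment sites, was called higher in KO cells. It stood at 0.813 and 2.81 CPM in WT and 3.75 and 8.41 CPM in KO, with 7.03 and 6.48 CPM in siNeg and 2.93 and 3.07 CPM in siTfap4. The WT and KO values did not overlap, but the KO duplicates lay farther apart than the nearest WT and KO libraries, and KO rep 2 was the highest of all 8. Lama3 was 3.44-fold higher in KO (log2 fold change 1.78, SE 0.53, adjusted p = 0.0411, edgeR). It was no longer called without WT rep 1 (adjusted p = 0.302), without KO rep 2 (adjusted p = 0.413) and in a fit to the 4 libraries alone (adjusted p = 0.0834, edgeR). Between siTfap4 and siNeg it was not called (log2 fold change -1.17, SE 0.51, adjusted p = 0.130, edgeR). Lamb3, a beta chain, was not called in KO against WT (1.87 and 1.94 CPM in WT, 2.45 and 3.22 CPM in KO, log2 fold change 0.57, SE 0.45, adjusted p = 0.507, edgeR).

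The alpha 5 and beta 2 chains, found together in laminin-521, were not called in KO against WT. Lama5 stood at 54.9 and 52.9 CPM in WT and 42.4 and 48.4 CPM in KO (log2 fold change -0.25, SE 0.25, adjusted p = 0.627, edgeR). Lamb2 stood at 14.9 and 25.1 CPM in WT and 25.5 and 35.9 CPM in KO (log2 fold change 0.62, SE 0.33, adjusted p = 0.280, edgeR). Lama2 and Lama4 were too low to be tested, with 11 and 28 counts over all libraries, and Lamc3 had 0.

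**Figure D3:**
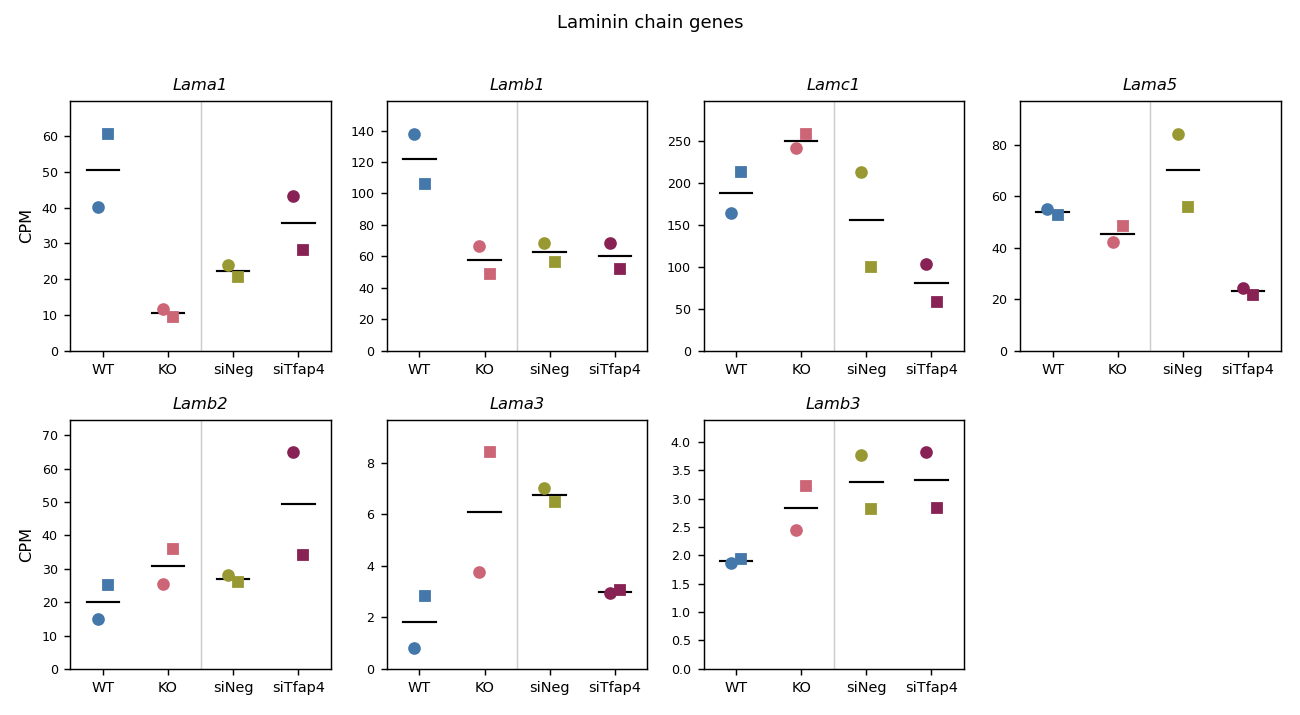
CPM (linear axes from 0) of tested laminin chain genes in every library, with circles for replicate 1, squares for replicate 2 and lines for group means. Lama1 and Lamb1 are lower in both KO than in both WT libraries, Lama5 is lower in both siTfap4 libraries (24.3 and 21.8 CPM) than in the other 6, and KO rep 2 is the higher KO library for Lama3 (8.41 CPM).

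Among the enzymes that modify collagen, 2 of 5 tested were called lower in KO. Plod2, a lysyl hydroxylase that acts on collagen telopeptides, stood at 91.6 and 99.0 CPM in WT and 32.3 and 26.2 CPM in KO, with 36.2 and 17.3 CPM in siNeg and 23.6 and 25.1 CPM in siTfap4. It was 3.25-fold lower in KO (log2 fold change -1.70, SE 0.30, adjusted p = 0.00171, edgeR), and both WT libraries lay above all others. P4ha2, a catalytic subunit of prolyl 4-hydroxylase, stood at 15.0 and 18.9 CPM in WT and 8.79 and 4.29 CPM in KO and did not overlap (log2 fold change -1.36, SE 0.38, adjusted p = 0.0297, edgeR).

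The P4ha2 call ended without WT rep 1 (adjusted p = 0.0521), WT rep 2 (adjusted p = 0.151) or KO rep 2 (adjusted p = 0.321, edgeR). Plod1, another lysyl hydroxylase, was lower in both KO libraries and not called (15.4 and 21.6 CPM in WT, 7.95 and 9.32 CPM in KO, log2 fold change -1.09, SE 0.36, adjusted p = 0.0632, edgeR). It was called lower with no filter on low counts, in a fit to the 4 libraries alone, and under a GC correction with a replicate block. P4ha1 and Loxl2, a lysyl oxidase that cross-links collagen, were not called (log2 fold change -0.17, SE 0.33, adjusted p = 0.812, and -0.64, SE 0.37, adjusted p = 0.323, edgeR). Lox had 5 counts in all and was not tested.

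Fibrillar collagens form the fibrils of connective tissue. Of 6 tested, Col5a1 and Col1a1 were called lower in KO. Col5a1 stood at 12.6 and 11.6 CPM in WT and 5.12 and 6.10 CPM in KO (log2 fold change -1.11, SE 0.33, adjusted p = 0.0428, edgeR). Col1a1 stood at 1.71 and 1.65 CPM in WT and 0.382 and 0.330 CPM in KO (log2 fold change -2.20, SE 0.66, adjusted p = 0.0432, edgeR). It had 21 and 17 counts in WT and at most 5 in any other library. Col1a1 thus passed the filter on low counts through WT alone, the group where it was high. Neither gene's groups overlapped, but both calls ended whichever single library was dropped. The adjusted p for Col5a1 was then 0.163 (WT rep 1 dropped), 0.109 (WT rep 2), 0.297 (KO rep 1) and 0.163 (KO rep 2, edgeR).

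For Col1a1 the adjusted p was 0.160, 0.131, 0.219 and 0.241 in the same order (edgeR). By DESeq2's Wald test it was 0.0592 for Col5a1 and 0.281 for Col1a1. With no filter on low counts it was 0.0525 for Col1a1 (edgeR). Col5a3 (adjusted p = 0.0537), Col11a1 (adjusted p = 0.123), Col27a1 (adjusted p = 0.615) and Col2a1 (adjusted p = 0.571) were not called by edgeR. Col5a3 was called lower with DESeq2's size factors, with no filter on low counts and with a GC correction. Col1a2, the partner chain of Col1a1 in type I collagen, had 5 counts in total and was not tested.

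Of the 11 other collagens tested, 2 were called higher in KO. Col26a1 stood at 3.49 and 8.82 CPM in WT, 16.4 and 20.5 CPM in KO, 21.3 and 24.7 CPM in siNeg, and 35.8 and 34.9 CPM in siTfap4. It was 3.04-fold higher in KO (log2 fold change 1.61, SE 0.36, adjusted p = 0.00857, edgeR), and every KO library lay above every WT library. It was no longer called without WT rep 1 (adjusted p = 0.104) or KO rep 2 (adjusted p = 0.0636, edgeR).

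Col9a2, a chain of the cartilage collagen type IX, stood at 4.79 and 7.46 CPM in WT and 21.0 and 11.2 CPM in KO (log2 fold change 1.40, SE 0.37, adjusted p = 0.0231, edgeR). The groups did not overlap, and KO rep 1 was the highest of all 8 libraries. It was no longer called without WT rep 1 (adjusted p = 0.175) or KO rep 1 (adjusted p = 0.343, edgeR). Col18a1, the basement membrane proteoglycan collagen whose fragment is endostatin, stood at 96.1 and 82.4 CPM in WT and 141 and 127 CPM in KO and was not called (log2 fold change 0.59, SE 0.23, adjusted p = 0.129, edgeR). In the 4 libraries alone it was called (adjusted p = 0.0381, edgeR). The 3′ end of Col18a1 overlaps Slc19a1, which was not called (log2 fold change 0.02). Col14a1 had 0 counts in both WT libraries and 0.306 and 0.660 CPM in KO (4 and 8 counts), and was not called (SE 1.98, adjusted p = 0.102, edgeR). With 3 counts assumed over the WT group the KO level would be 3.59-fold higher. That value carries no error of the KO counts and is no lower bound. With 0 counts in WT, the gene passed the filter on low counts only through other groups.

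The log2 fold changes of the other 7 tested collagens of this group, Col6a4, Col6a5, Col7a1, Col9a3, Col13a1, Col17a1 and Col22a1, lay between -2.27 and 0.00, and none was called. Col13a1, a membrane collagen, came nearest (6.01 and 6.30 CPM in WT, 1.99 and 3.30 CPM in KO, log2 fold change -1.22, SE 0.40, adjusted p = 0.0651, edgeR), and its groups did not overlap. Under a GC correction with a replicate block it was called lower. The 29 genes that were not tested reached at most 1.45 CPM in any library (Col6a6) and 52 counts over all 8 (Col16a1). Of these, Col3a1, Col4a3, Col10a1, Col24a1, Col28a1 and Lamc3 had 0 counts in every library.

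**Figure D4:**
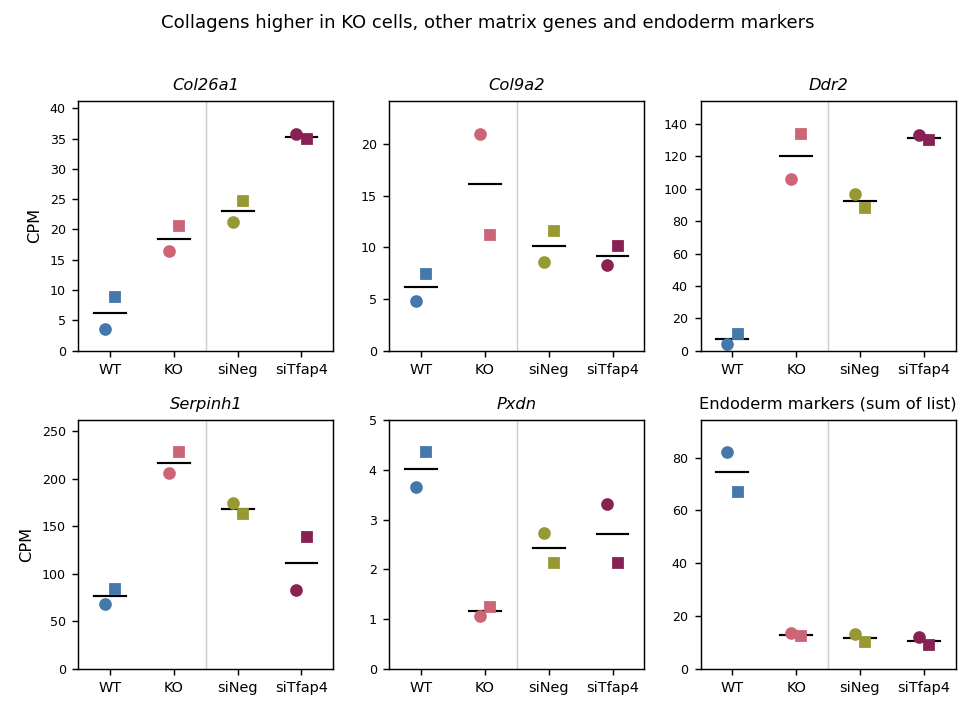
CPM (linear axes from 0) in every library for Col26a1, Col9a2, the collagen receptor gene Ddr2, the collagen chaperone gene Serpinh1, the type IV collagen cross-linking gene Pxdn and the sum of the primitive endoderm marker list, with circles for replicate 1, squares for replicate 2 and lines for group means. Ddr2 is at 3.90 and 10.3 CPM in WT and at 106 and 134 CPM in KO, and the marker sum is at 82.1 and 67.1 CPM in WT against at most 13.5 CPM elsewhere.

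The genes that link laminin to collagen, and Sparc, were not called in KO against WT (0 of 5 by edgeR and by DESeq2's Wald test, 1 with an unadjusted p below 0.05). Nid2, a nidogen, stood at 239 and 282 CPM in WT and 162 and 180 CPM in KO (log2 fold change -0.61, SE 0.29, adjusted p = 0.217, edgeR). Hspg2, which encodes perlecan, stood at 49.2 and 59.3 CPM in WT and 30.1 and 34.1 CPM in KO (log2 fold change -0.76, SE 0.26, adjusted p = 0.0770, edgeR). Both KO libraries lay below both WT libraries for each of these genes, and in a fit to the 4 libraries alone both were called lower (adjusted p = 0.0312 and 0.0314, edgeR). Nid1 stood at 68.6 and 95.7 CPM in WT and 51.1 and 64.3 CPM in KO (log2 fold change -0.51, SE 0.36, adjusted p = 0.444, edgeR). Agrn, which encodes agrin, was not called either (92.5 and 114 CPM in WT, 113 and 153 CPM in KO, log2 fold change 0.36, SE 0.26, adjusted p = 0.442, edgeR). Sparc, a collagen-binding matrix protein, was not called (298 and 511 CPM in WT, 297 and 454 CPM in KO, log2 fold change -0.11, SE 0.28, adjusted p = 0.873, edgeR).

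Markers of primitive endoderm were also lower in KO than in WT cells. Their summed level was 82.1 and 67.1 CPM in WT, 12.3 to 13.5 CPM in KO, 10.1 to 13.2 CPM in siNeg and 9.20 to 12.0 CPM in siTfap4. Of 10 tested markers, 7 were called lower in KO, where 3.96% of all tested genes were. Among them were Gata6 (log2 fold change -3.34) and Dab2 (-4.39), while Gata4 was not called (-0.65). Sox17, Pdgfra, Hnf4a and Cubn were also called lower, but passed the filter on low counts through their WT libraries alone. They could thus be tested only because they were high in WT. Thbd went the other way and was not tested (0.0813 and 0.194 CPM in WT, 0.535 and 0.412 CPM in KO). Afp and Ttr, markers of later derivatives of primitive endoderm, had 1 and 3 counts over all libraries. In bulk RNA a smaller number of such cells and less of each RNA per cell cannot be told apart. The part of these markers in the Col4a1, Col4a2, Lama1 and Lamb1 results was not tested.

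Of fibroblast markers, Postn, Prrx1 and Tcf21 had 0 counts in all libraries, and Dcn, Lum and Twist2 had 1, 1 and 2. The summed fibroblast list was 28.8 to 52.9 CPM in WT and 11.5 to 22.1 CPM in KO, mostly from Thy1, which fell (log2 fold change -1.35). Its part in the Col1a1 and Col5a1 results was not tested. Of 5 pluripotency markers 0 were called in KO against WT by edgeR, 0 with an unadjusted p below 0.05. Of 5 tested trophoblast markers 1 was called higher, and of 3 tested endothelial markers 0 were called (0 with an unadjusted p below 0.05, edgeR).

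After the Tfap4 knockdown, 4 of the 37 genes were called lower (10.8%) and 0 higher, where 11.1% and 4.36% of all tested genes were, so the share called lower was close to that of all tested genes. At an unadjusted p below 0.05, 7 were lower and 4 higher, and DESeq2's Wald test called 5 lower and 0 higher. The median log2 fold change was 0.00, against 0.01 over all tested genes. The 4 genes were Lama5, Nid2, Nid1 and Hspg2, an alpha chain of laminin and 3 of the 5 linking and matricellular genes. No collagen and no modifying enzyme was called by this test.

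Nid2 stood at 195 and 94.5 CPM in siNeg and 35.8 and 46.2 CPM in siTfap4, with 162 and 180 CPM in untreated KO cells. Both siTfap4 libraries were the lowest of all 8. Nid2 fell 3.53-fold (log2 fold change -1.82, SE 0.30, adjusted p = 0.000945, edgeR). Its last 1000 bases overlap Rtraf on the opposite strand, and as the strand setting of the counting is not known here, reads of the pair cannot be told apart. Rtraf itself was not called (192 and 307 CPM in siNeg, 81.2 and 182 CPM in siTfap4, log2 fold change -0.92, SE 0.32, adjusted p = 0.0633, edgeR).

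Lama5 stood at 84.3 and 56.0 CPM in siNeg and 24.3 and 21.8 CPM in siTfap4 and did not overlap. It fell 3.04-fold (log2 fold change -1.61, SE 0.27, adjusted p = 0.000878, edgeR). Lama5 and Nid2 kept their calls under all 12 alternatives. Hspg2 stood at 38.8 and 37.6 CPM in siNeg and 13.9 and 20.8 CPM in siTfap4, again with no overlap, and fell 2.20-fold (log2 fold change -1.14, SE 0.27, adjusted p = 0.0108, edgeR). The Hspg2 call ended without siNeg rep 1 (adjusted p = 0.0604) and without siTfap4 rep 1 (adjusted p = 0.137, edgeR).

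Nid1 stood at 59.9 and 21.1 CPM in siNeg and 18.7 and 16.3 CPM in siTfap4 and was called lower (log2 fold change -1.21, SE 0.39, adjusted p = 0.0481, edgeR). The siNeg duplicates lay farther apart than siNeg rep 2 lay from either siTfap4 library. Without siNeg rep 1 the log2 fold change was -0.29 (adjusted p = 0.643), and the call also ended without siTfap4 rep 1 (adjusted p = 0.247) or siTfap4 rep 2 (adjusted p = 0.173, edgeR). With a correction for the GC content of the last 100 bases it was -0.61 (adjusted p = 0.267), and with no filter on low counts the adjusted p was 0.0789 (edgeR). The last 100 bases of Nid1 have a GC content of 24%.

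**Figure D5:**
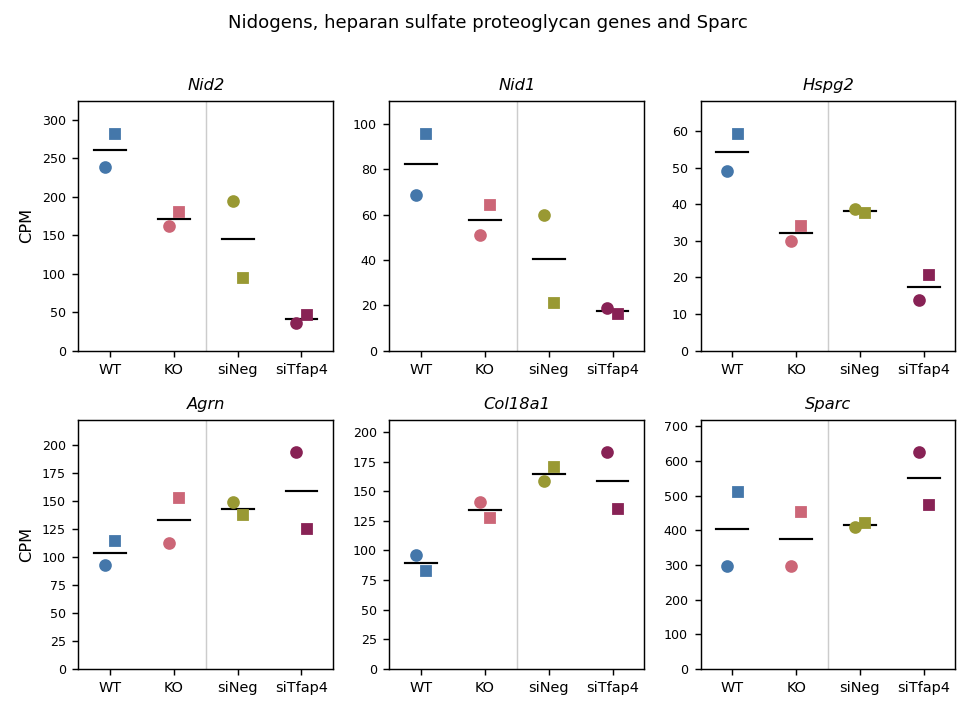
CPM (linear axes from 0) of Nid2, Nid1, Hspg2, Agrn, Col18a1 and Sparc in every library, with circles for replicate 1, squares for replicate 2 and lines for group means. Nid2 (35.8 and 46.2 CPM), Nid1 (18.7 and 16.3 CPM) and Hspg2 (13.9 and 20.8 CPM) are lowest in the siTfap4 libraries, and the siNeg duplicates stand apart for Nid2 and Nid1.

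Lamc1 also stood apart between the siNeg duplicates, at 213 and 99.8 CPM, with 104 and 57.8 CPM in siTfap4, and the groups overlapped. It was not called (log2 fold change -0.95, SE 0.34, adjusted p = 0.0680, edgeR), but it was without siNeg rep 2 (-1.41, adjusted p = 0.0131, edgeR) and by DESeq2's Wald test (adjusted p = 0.0375). Lama1 was higher in both siTfap4 libraries (43.2 and 28.2 CPM) than in both siNeg libraries (24.0 and 20.5 CPM) and was not called (log2 fold change 0.68, SE 0.29, adjusted p = 0.130, edgeR). Lamb2 (28.0 and 26.0 CPM in siNeg, 65.0 and 34.1 CPM in siTfap4) was not called (log2 fold change 0.87, SE 0.33, adjusted p = 0.0816, edgeR), but was without siTfap4 rep 2 (1.25, adjusted p = 0.0184, edgeR). Lamb1 did not separate the groups (68.8 and 56.6 CPM in siNeg, 68.4 and 51.8 CPM in siTfap4, log2 fold change -0.06, SE 0.26, adjusted p = 0.899, edgeR).

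The remaining abundant genes were not called after the knockdown. Sparc was at 410 and 421 CPM in siNeg and 626 and 474 CPM in siTfap4 (log2 fold change 0.40, SE 0.28, adjusted p = 0.347, edgeR), and Agrn at 149 and 138 CPM and 194 and 125 CPM (0.15, SE 0.26, adjusted p = 0.726, edgeR). Col18a1 was at 159 and 170 CPM in siNeg and 183 and 135 CPM in siTfap4 (-0.05, SE 0.23, adjusted p = 0.912, edgeR), where the groups overlapped as they did for Agrn. Col26a1 was higher in both siTfap4 libraries and not called (0.62, SE 0.32, adjusted p = 0.200, edgeR), and Plod2 was not called (-0.14, SE 0.31, adjusted p = 0.799, edgeR). Of 10 tested endoderm markers 0 were called (2 with an unadjusted p below 0.05, edgeR), and of 5 pluripotency markers 1 was called higher and 1 lower. Several of the endoderm markers were already near the floor in siNeg, such as Cubn (7 and 4 counts) and Pdgfra (6 and 4 counts). For these a further fall could hardly be called.

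The promoter window of Lama5 is printed as that of a gene called lower (RefSeq, GRCm38.p6, chr2:180225810-180226109, minus strand). TFAP4 binds E-boxes, and both strands of 47 of the 66 genes' windows were searched for CAGCTG and for the general form CANNTG, which contains it. Capitals mark the 2 CANNTG matches of Lama5, and its window holds no CAGCTG. The windows of Hspg2 and Nid1 hold neither form, and Nid2 has no entry in the promoter table. CAGCTG was in 9 of 52 windows of the set (17.3%) and in 16.3% of all 32851 windows, and CANNTG in 55.8% and 72.3%.
Lama5 promoter: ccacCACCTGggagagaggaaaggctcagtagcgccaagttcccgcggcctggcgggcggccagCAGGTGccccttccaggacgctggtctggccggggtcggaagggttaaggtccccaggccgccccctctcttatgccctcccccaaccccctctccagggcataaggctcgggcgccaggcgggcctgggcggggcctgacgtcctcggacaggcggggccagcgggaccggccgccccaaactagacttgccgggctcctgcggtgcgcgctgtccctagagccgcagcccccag

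Untreated KO and siNeg cells share a genotype and differ in transfection and in preparation set, effects that cannot be told apart, so their levels are given side by side without a test. Lama1 was at 11.6 and 9.49 CPM in KO and at 24.0 and 20.5 CPM in siNeg. Col9a2 was at 21.0 and 11.2 CPM in KO and at 8.57 and 11.6 CPM in siNeg. Col4a1, at 3.59 and 4.12 CPM in KO, lay between the siNeg libraries at 7.28 and 1.84 CPM.

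Genes around the set were taken from lists of matrix receptors, collagen modification and folding, collagen export, matrix turnover, other matrix proteins and dystroglycan glycosylation. Their counts stand beside the background, in which 5.99% of all tested genes were called higher and 3.96% lower in KO against WT. The receptors had 1 higher and 2 lower of 17 tested, with a median log2 fold change of 0.07. Ddr2, a collagen receptor tyrosine kinase, rose from 3.90 and 10.3 CPM in WT to 106 and 134 CPM in KO (log2 fold change 4.10, SE 0.35, adjusted p = 3.79e-06, edgeR). Sdc1 and Itga3, a syndecan and an integrin subunit for laminin, were called lower (log2 fold change -1.62 and -1.08). Sdc1 was no longer called without WT rep 2, KO rep 1 or KO rep 2 (adjusted p = 0.0583, 0.0968 and 0.0768), and Itga3 without WT rep 1, WT rep 2 or KO rep 1 (adjusted p = 0.0589, 0.201 and 0.428, edgeR).

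Of 17 tested genes of collagen modification and folding, 3 were higher and 2 lower in KO. Serpinh1, the collagen chaperone HSP47, rose from 68.5 and 84.3 CPM in WT to 206 and 228 CPM in KO (log2 fold change 1.51, SE 0.26, adjusted p = 0.00152, edgeR). Its values did not overlap, and its call held under all 12 alternatives. P3h4 (log2 fold change 1.19) was no longer called without WT rep 1 or KO rep 2 (adjusted p = 0.0955 and 0.191, edgeR). Fkbp10 (1.06) was no longer called when any single library was dropped (adjusted p = 0.0739, 0.126, 0.0784 and 0.159 without WT rep 1, WT rep 2, KO rep 1 and KO rep 2), as was Pxdn (-1.78), the peroxidasin that cross-links type IV collagen (adjusted p = 0.0564, 0.105, 0.172 and 0.115 in that order, edgeR).

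Of 14 tested genes of matrix turnover 3 were lower in KO, and Serpine2, a protease inhibitor, kept its call under all 12 alternatives (log2 fold change -2.90, SE 0.34, adjusted p = 6.37e-05, edgeR). Mmp2 (-1.62) was no longer called without WT rep 2 (adjusted p = 0.0602) or KO rep 1 (adjusted p = 0.194), and Mmp14 (-1.04) when any single library was dropped (adjusted p = 0.147, 0.118, 0.254 and 0.203 without WT rep 1, WT rep 2, KO rep 1 and KO rep 2, edgeR). Of 15 other matrix genes 2 were higher and 1 lower: Spp1, osteopontin, rose (1.39, adjusted p = 0.00288), Frem2 rose (2.22, adjusted p = 0.0707 without WT rep 2) and Ntn1, netrin 1, fell (-1.90, adjusted p = 0.100 without KO rep 1, edgeR). Of 11 export genes 0 were called, 3 had an unadjusted p below 0.05, and the most abundant, Lman1 and Sec31a, had log2 fold changes of 0.00 and -0.03 (edgeR).

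After the Tfap4 knockdown 4.36% of all tested genes were called higher and 11.1% lower, and the list counts stand beside those shares. Of 11 collagen export genes 3 were called lower. Sec13, a coat subunit of export vesicles, stood at 80.1 and 93.6 CPM in siNeg and 4.59 and 26.9 CPM in siTfap4 (log2 fold change -2.45, SE 0.51, adjusted p = 0.00861, edgeR), and was no longer called with no filter on low counts (adjusted p = 0.155) and in the 4 libraries alone (adjusted p = 0.0923). Sec23a (-1.07) was no longer called without siNeg rep 1 or siTfap4 rep 1 (adjusted p = 0.0595 and 0.149), and with the GC correction (adjusted p = 0.0889, edgeR). Trappc2 (-1.59) was no longer called without siNeg rep 1, siTfap4 rep 1 or siTfap4 rep 2 (adjusted p = 0.181, 0.199 and 0.0561), and with the GC correction (adjusted p = 0.112, edgeR).

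Crtap, a subunit of the prolyl 3-hydroxylase complex, was the 1 gene of 17 in collagen modification called lower, from 15.8 and 18.6 CPM in siNeg to 2.80 and 2.01 CPM in siTfap4 (log2 fold change -2.84, SE 0.40, adjusted p = 0.000225, edgeR). Its call held under all 12 alternatives. Of 17 receptor genes 0 were called by edgeR, and 5 had an unadjusted p below 0.05. Dag1, which encodes dystroglycan, was not called (log2 fold change -0.68, adjusted p = 0.0819), but was without siTfap4 rep 2 (-1.13, adjusted p = 0.00905) and with the GC correction (-0.95, adjusted p = 0.0308, edgeR). Of 8 tested genes of dystroglycan glycosylation 2 were called lower, B3galnt2 and Pomgnt1 (-2.04 and -1.42), and both calls ended without siNeg rep 1 (adjusted p = 0.175 and 0.121) or siTfap4 rep 1 (adjusted p = 0.137 and 0.188, edgeR).

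Of 14 turnover genes 2 were higher and 2 lower after the knockdown. Serpine2 was higher (log2 fold change 1.72) and was no longer called without siNeg rep 1 (adjusted p = 0.0623), and Timp2 was higher (1.41) and was no longer called when any single library was dropped (adjusted p = 0.181, 0.0837, 0.130 and 0.124 without siNeg rep 1, siNeg rep 2, siTfap4 rep 1 and siTfap4 rep 2) and in the 4 libraries alone (adjusted p = 0.0548, edgeR). Mmp11 was lower (-1.25), and its call ended without siTfap4 rep 1 (adjusted p = 0.111, edgeR).

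Of 15 other matrix genes 1 was higher and 3 lower after the knockdown. Spp1 (log2 fold change -1.20) and Gpc3 (-1.42) were no longer called without siNeg rep 1 (adjusted p = 0.0808 and 0.0919) or siTfap4 rep 1 (adjusted p = 0.0997 and 0.0838), and Spp1 also with the GC correction (adjusted p = 0.0662, edgeR). Tinagl1 (-1.62), a basement membrane protein, was no longer called without siNeg rep 1, siNeg rep 2 or siTfap4 rep 1 (adjusted p = 0.153, 0.0905 and 0.354, edgeR). Gpc1 (1.00) was higher, and was no longer called without siNeg rep 1, siTfap4 rep 1 or siTfap4 rep 2 (adjusted p = 0.265, 0.167 and 0.0728), in the 4 libraries alone (adjusted p = 0.0582) and with the GC correction (adjusted p = 0.150, edgeR).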

How the data were processed

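The data are 3′ mRNA counts of 8 libraries, 2 per group, and all columns were used. The authors deposited whole-number counts per gene, with reads trimmed with Trim Galore and the build GRCm38, per the submitters' processing notes. Which aligner and counter were run, with what versions, strandedness and gene models, is not given in the sources used here. Symbols came from GENCODE vM21, which covered 55240 of 55421 identifiers. Col4a3bp, a ceramide transfer protein gene whose symbol begins like a collagen's, was left out. Members and lists were chosen with earlier results of these data known.

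Counts were filtered with filterByExpr, scaled with TMM factors and fitted with edgeR 4.0.16 in R 4.3.3 as a robust quasi-likelihood model with 4 group means over all 8 libraries, with 4 residual degrees of freedom. Benjamini-Hochberg adjusted p-values were held to a threshold of 0.05, and p-values cover the spread between these duplicates. Standard errors are the log2 fold change divided by the root of the F statistic. Values are given by library for genes called in either comparison or averaging 20 CPM or more over all libraries, and for further genes of the set chosen after their values were seen. For P4ha2, Col5a1, Col1a1 and Col9a2 the text leaves out some siPOOL values, and the figures show every library. From each list up to 4 called genes were named, or, if it had no call, its 2 genes of highest level. The fit was repeated with size factors from DESeq2 1.42.0, with its Wald test, with no filter, a filter of 1 CPM in 2 libraries, the 4 libraries alone, a replicate block, a lowess GC correction (span 0.3) with and without the block, and each library left out, where a lone library is assumed to vary like the other groups. The fit was also run on simulated counts, drawn with the trended dispersion and with random GC values. The outcome is not given here, and no result rests on it. Some genes that the naming rule selects are counted but not reported here.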

Additional observations from a re-analysis of the deposited data

How the results depend on the processing

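Of the 12 genes of the set called in KO against WT, Col4a1, Col4a2, Lama1 and Plod2 kept their calls under all 12 alternatives, and of the 4 called after the Tfap4 knockdown, Lama5 and Nid2 did. Leaving out 1 library gave 4 to 6 genes called lower and 1 to 3 called higher in KO against WT, and 2 to 5 called lower and 0 to 2 called higher in siTfap4 against siNeg. The GC correction gave 1 gene called higher after the knockdown, Col6a5, and the GC correction with the replicate block also gave 1. The cause was not tested. With 2 libraries per group, changes may be missed, and not only small ones. In KO against WT, Col5a3 had a log2 fold change of -1.65 and was not called, while Lamb1 at -1.08 was.

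Samples of the same number were not shown to pair (correlation of deviations -0.06 in the WT and KO set and 0.13 in the siPOOL set, over 15137 genes). With the replicate block 3 genes were called higher and 6 lower in KO against WT, and 0 higher and 4 lower in siTfap4 against siNeg. Under the block Col1a1, Col5a1, Col9a2 and Mmp14 in KO against WT (adjusted p = 0.0758, 0.0627, 0.0515 and 0.0701) and Nid1 after the knockdown (0.0516) lost their calls, and Lamc1 gained one (0.0188, edgeR).

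Signs under the alternatives were followed only for the genes of the set called in either comparison or averaging 20 CPM or more, and for the named list genes. Among these, the log2 fold changes that changed sign were all of genes not called in that comparison. Other tested genes of the set were not checked for a change of sign. In KO against WT these were Sparc (-0.44 to 0.34 with a library left out), Lman1 (0.01 with no filter, 0.00 in the 4 libraries alone, -0.08 to 0.09 with a library left out) and Sec31a (-0.11 to 0.06). In siTfap4 against siNeg, with the GC correction and with the GC correction with the replicate block, they were Col1a1 (0.18 and 0.14), Lamb1 (0.25 and 0.23), Plod2 (0.44 and 0.49), Col4a2 (-0.10 and -0.02) and, under the latter, Col4a1 (0.08). With a library left out of that comparison they were Col1a1 (-1.15 to 1.39), Lamb1 (-0.29 to 0.11), P4ha2 (-0.03 to 0.95), Plod2 (-0.58 to 0.48), Agrn (-0.21 to 0.42), Col18a1 (-0.29 to 0.14), Col9a2 (-0.35 to 0.09), Col4a1 (-0.88 to 1.10), Col4a2 (-1.00 to 2.07) and Itga6 (-0.32 to 0.21).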
